A study of Homo sapiens with 6 samples.

Results

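The 10 genes described here encode inflammatory ligands, receptors, adhesion molecules and regulators linked to the transcription factor NF-kB: CSF3, CCL7, IL1A, IL7, TNFSF15, TNFRSF9, VCAM1, TNFAIP2, NFKBIA and NFKB2. They were taken by name from a deposited table of 453 rows, and all 10 were found. The table holds only rows with an unadjusted p under 0.05, and the genes were picked with their values in this contrast known, so the levels and fold changes below are a description with no test of the genes themselves. The member nearest the edge of the table was IL7, with an unadjusted p of 0.0491 in the authors' deposited table. CSF3 had 0.0224 there, TNFSF15 0.0476 and TNFAIP2 0.00136, and genes outside the table were not analysed here.

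The libraries were made from LX2, an established human hepatic stellate cell line. Recombinant GDF15, a cytokine that cells secrete under stress, was added at 1 ug/ml for 24 h in 3 libraries, and the other 3 libraries came from untreated LX2 cells. The labels carry no genetic change in either group, and nothing in them ties a library to its own culture dish, so the spread between libraries, and any p from it, may be technical. LX2 is a single line, which limits how far it stands for stellate cells of a liver. The study's title places it in work on GDF15 and liver metastases of uveal melanoma. The samples' cell type label reads epithelial, against the design text. None of the 36 marker genes looked up, 10 of them for stellate cells, was among the table's rows, so neither label could be checked against expression. In bulk RNA of this kind, fewer cells of a type and less RNA per cell cannot be told apart.

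NF-kB proteins are held in the cytoplasm by inhibitor proteins such as the product of NFKBIA. Signals from the IL-1, Toll-like and TNF receptors lead to loss of the inhibitor, and the freed dimers enter the nucleus and switch on genes of cytokines, chemokines and adhesion molecules. Among the induced genes are NFKBIA and NFKB2 themselves, which makes the pathway self-limiting. In liver, activated stellate cells are a source of cytokines, chemokines and VCAM1 that recruit and retain leukocytes.

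The library GDF15 replicate 1 stood apart from the other 5. Values are the authors' normalized counts, written in the order of replicates 1, 2 and 3 of each group, each library's counts scaled by a single factor, and within a library all values were whole multiples of 1 step of between 0.792 and 1.12 normalized counts, to within 0.001 of a step. The steps are inferred from the values, and no read counts were used here. The table's rows summed to 470046 normalized counts in GDF15 replicate 1 and to between 279332 and 326126 in the others, and the full depth is unknown. All 10 genes had their highest value in GDF15 replicate 1, as did 180 of the 453 rows (39.7%). Those 180 were all among the 274 rows listed as higher with GDF15, to which the 10 genes belong. In 9 of the 10 that value was at least 2 times that of every other library, which held for 52 rows of the table (11.5%). Those 52 were also all listed as higher, and made up 19.0% of the higher rows. For this reason each gene is given with and without this library. What set it apart was not tested.

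**Figure D1:**
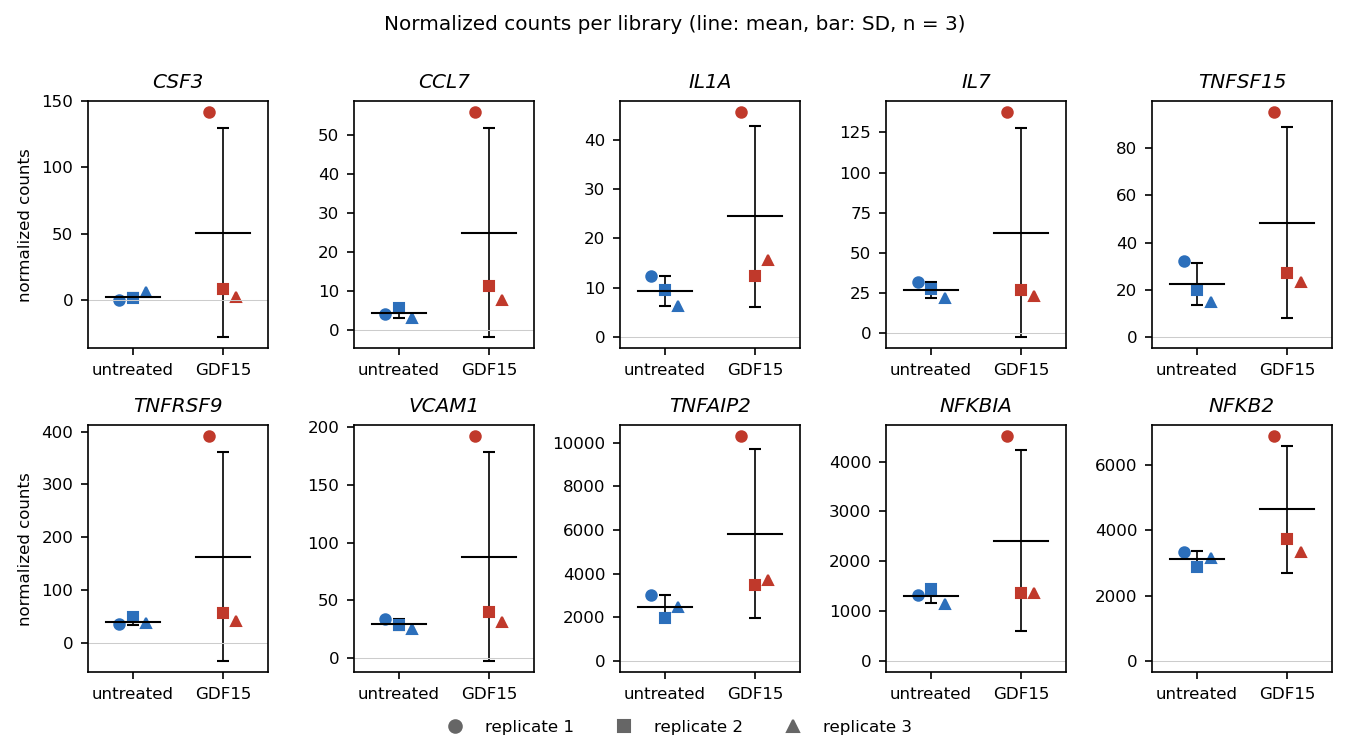
Normalized counts of the 10 genes (vertical axes, linear, a separate scale for each gene) in untreated and GDF15 libraries, with 1 marker per library, a horizontal line at the group mean and a bar of ± 1 SD (n = 3). In all 10 panels GDF15 replicate 1, the red circle, lies above the 5 other libraries. For CCL7 and TNFAIP2, GDF15 replicates 2 and 3 also lie above all untreated libraries.

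Among the genes of secreted ligands, CSF3 had the widest spread. CSF3 (ENSG00000108342, GRCh38 chromosome 17, 40015361 to 40017813, plus strand) encodes granulocyte colony-stimulating factor, which drives the making and release of neutrophils. It had 142, 7.86 and 2.22 normalized counts in the treated libraries and 0, 0.948 and 5.54 in the untreated ones. In steps, the smallest unit a library could show, these were 137, 7 and 2 steps with GDF15 and 0, 1 and 7 without. A single library was high, and the other 5 were at a few steps each, with overlap between the groups. Its mean was 50.6 ± 79.0 after treatment, against 2.16 ± 2.96 (SD, n = 3), a 23.4-fold ratio, and 93.4% of the GDF15 sum lay in replicate 1, where equal libraries would give 33.3%. Without that library the ratio was 2.33-fold, between means that rest on a few steps.

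CCL7 was higher in every GDF15 library than in any untreated one. CCL7 (ENSG00000108688, chromosome 17, 34270221 to 34272242, plus strand) encodes a chemokine that attracts monocytes through CCR2 and other receptors. It had 55.9, 11.2 and 7.76 normalized counts in the treated libraries and 4.15, 5.69 and 3.17 in the untreated ones. The lowest GDF15 and the highest untreated library were only 7 and 6 steps, so the gap between the groups was narrow. Its means were 24.95 ± 26.8 and 4.33 ± 1.27 (SD, n = 3), a 5.76-fold ratio that was 2.19-fold without GDF15 replicate 1.

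The 100 bases before the start of CCL7 are shown because this gene is higher in all 3 GDF15 libraries and its window holds no match to the NF-kB consensus. Capitals mark an AP-1 match (TGANTCA) and a TATA match (TATAAA), both searched by script on both strands in RefSeq promoter sequence of build GRCh38.p14, chr17:34270121-34270220, plus strand.
CCL7: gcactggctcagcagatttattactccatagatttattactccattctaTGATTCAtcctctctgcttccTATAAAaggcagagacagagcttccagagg
A missing match says only that these letters are not in this window.

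IL1A and IL7 behaved differently once the high library was set aside. IL1A (ENSG00000115008, chromosome 2, 112773915 to 112784590, minus strand) encodes interleukin-1 alpha, an alarm cytokine that itself switches on NF-kB. Its values were 45.5, 12.4 and 15.5 normalized counts in the treated libraries and 12.4, 9.48 and 6.33 in the untreated ones. GDF15 replicate 2 and untreated replicate 1 were nearly equal, so the groups overlapped, and GDF15 replicate 3 lay above all untreated libraries. The ratio of means was 2.60-fold for 24.5 ± 18.3 against 9.42 ± 3.05 (SD, n = 3), and 1.48-fold without GDF15 replicate 1.

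IL7 (ENSG00000104432, chromosome 8, 78675743 to 78805523, minus strand) encodes interleukin-7, a survival factor of lymphocytes made by stromal cells. It had 138, 27.0 and 23.3 normalized counts in the treated libraries and 32.1, 27.5 and 22.2 in the untreated ones. Outside GDF15 replicate 1 the groups lay on top of each other. The means, 62.6 ± 65.0 against 27.3 ± 4.99 (SD, n = 3), gave a 2.30-fold ratio. IL7 was the only 1 of the 10 whose ratio turned to lower when GDF15 replicate 1 was left out, to 0.921-fold.

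TNFSF15 (ENSG00000181634, chromosome 9, 114784635 to 114806126, minus strand) encodes TL1A, a TNF family ligand that stimulates T cells through the receptor DR3. It was measured at 95.2, 27.0 and 23.3 normalized counts in the treated libraries and at 32.1, 19.9 and 15.0 in the untreated ones. Untreated replicate 1 was above GDF15 replicates 2 and 3. The 2.17-fold ratio of 48.5 ± 40.5 to 22.4 ± 8.81 (SD, n = 3) was 1.12-fold without GDF15 replicate 1.

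Of the membrane proteins that act on leukocytes, TNFRSF9 came after CSF3 and CCL7 in its ratio of means. TNFRSF9 (ENSG00000049249, chromosome 1, 7915894 to 7943165, minus strand) encodes 4-1BB, a co-stimulatory receptor best known from activated T cells. It had 391, 56.2 and 42.1 normalized counts in the treated libraries and 36.3, 48.3 and 37.2 in the untreated ones. GDF15 replicate 2 was just above the untreated libraries and GDF15 replicate 3 was among them. Its means were 163 ± 198 and 40.6 ± 6.70 (SD, n = 3), a 4.02-fold ratio that was 1.21-fold without GDF15 replicate 1.

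VCAM1 (ENSG00000162692, chromosome 1, 100719742 to 100739045, plus strand) encodes the adhesion molecule to which leukocytes bind by the integrin VLA-4. It had 192, 40.4 and 31.0 normalized counts in the treated libraries and 34.2, 28.4 and 25.3 in the untreated ones. GDF15 replicate 3 fell below the highest untreated library, so the groups overlapped. The ratio was 3.00-fold for 88.0 ± 90.6 against 29.3 ± 4.51 (SD, n = 3), and 1.22-fold without GDF15 replicate 1.

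TNFAIP2 (ENSG00000185215, chromosome 14, 103123442 to 103137439, plus strand) is induced by TNF in endothelial cells, and its product is linked to thin membrane tubes between cells. Its values were 10292, 3504 and 3715 normalized counts in the treated libraries and 3050.4, 1963 and 2476 in the untreated ones. All 3 GDF15 libraries were above all untreated ones, and with 2071 steps in the lowest library these counts are not small. The means, 5837 ± 3859 and 2496 ± 544 (SD, n = 3), had a 2.34-fold ratio. Without GDF15 replicate 1 it was 1.45-fold.

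The NF-kB consensus, a 10-base pattern, stood close to the start of both leukocyte-binding genes. The stretches are shown because VCAM1 and TNFRSF9 are members with a high ratio in GDF15 replicate 1. Both are RefSeq sequence of GRCh38.p14, from chr1:100719642-100719741 on the plus strand for VCAM1 and from chr1:7940894-7940923 on the minus strand for TNFRSF9. For TNFAIP2 the 30 bases at chr14:103123353-103123382, plus strand, hold a match to GGNNTTTCC, a shorter pattern, but not to the consensus. Capitals mark the NF-kB consensus and, in VCAM1, a pair of overlapping TATA matches on opposite strands, and in TNFAIP2 the GGNNTTTCC match. The TNFRSF9 bases lie in an exon of a longer transcript in GENCODE release 29, so only 30 are given.
VCAM1: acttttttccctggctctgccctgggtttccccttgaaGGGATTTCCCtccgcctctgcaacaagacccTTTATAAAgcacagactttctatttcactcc
TNFRSF9: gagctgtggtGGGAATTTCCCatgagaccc
TNFAIP2: cctccgcccgcGGGTTTTCCgcggttgcgg
The consensus match of VCAM1 began 62 bases before the start, and those of TNFRSF9, overlapping on both strands, began 74 and 73 bases before it.

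The regulators of the pathway had the smallest ratios of the 10. NFKBIA (ENSG00000100906, chromosome 14, 35401511 to 35404749, minus strand) encodes IkB-alpha, the inhibitor whose rapid resynthesis ends an NF-kB response. It had 4506, 1362 and 1362 normalized counts in the treated libraries and 1322, 1438 and 1148 in the untreated ones. GDF15 replicates 2 and 3 lay inside the untreated range. The ratio of 2410.0 ± 1815 to 1303 ± 146 (SD, n = 3) was 1.85-fold with all libraries and 1.05-fold without GDF15 replicate 1.

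NFKB2 (ENSG00000077150, chromosome 10, 102394110 to 102402529, plus strand) encodes p100, the precursor of the p52 subunit of the non-canonical NF-kB pathway. Its values were 6865, 3719 and 3328 normalized counts in the treated libraries and 3338, 2859.9 and 3147 in the untreated ones. GDF15 replicate 3 was just under untreated replicate 1, by less than the spread of either group. It was the member with the lowest ratio, 1.49-fold for 4637 ± 1939 against 3115 ± 240.5 (SD, n = 3), and the 1 whose value in GDF15 replicate 1 was under 2 times the next library, at 1.85 times. Without that library its ratio was 1.13-fold.

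The start regions of these regulators hold several matches to the NF-kB consensus, shown because both genes are known targets of the factor they regulate. For NFKBIA the 100 bases before the start are given (GRCh38.p14, chr14:35404750-35404849, minus strand), with the consensus match and a reverse-strand TATA match in capitals. For NFKB2, which has 3 annotated starts in the RefSeq windows, 2 stretches of 30 bases are given with the consensus in capitals, at chr10:102394461-102394490 before a middle start and at chr10:102395674-102395703 before the last start, both on the plus strand. Bases of both NFKB2 stretches lie in exons of other transcripts of the gene.
NFKBIA: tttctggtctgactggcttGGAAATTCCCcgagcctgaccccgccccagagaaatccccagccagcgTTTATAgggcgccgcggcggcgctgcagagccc
NFKB2, middle start: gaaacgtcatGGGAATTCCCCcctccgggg
NFKB2, last start: tggtattttcGGGACTTTCCtaagctgctc
The NFKBIA match began 81 bases before the start, those of the first NFKB2 stretch 107 and 106 bases before it, overlapping on both strands, and that of the other NFKB2 stretch 21 bases before it.

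Promoter windows of 250 bases before to 50 bases after a start were matched for 8 of the 10 members. The NF-kB consensus, read on both strands, was found in 4 of the 8, NFKB2, NFKBIA, TNFRSF9 and VCAM1, against 13.3% of all 27305 genes with a window and 29.9% of the 184 genes with a window that the table lists as higher. The pattern GGNNTTTCC was found in these 4 genes and in TNFAIP2, so in 5 of the 8. It was found in 7.61% of all genes and 13.6% of the higher ones. In each of the 4 genes at least 1 of its matches overlaps the consensus, and VCAM1 and NFKBIA each hold 1 more that does not, 219 and 242 bases before the start. AP-1 matches (TGANTCA, the same on both strands) were found in CCL7, IL1A, TNFRSF9 and TNFSF15. They were in 9.37% of all genes and 10.9% of the higher ones. TATAAA was found in CCL7, IL1A, NFKBIA and VCAM1, against 14.0% of all genes and 13.0% of the higher ones. NFKB2 has 3 windows and IL1A 2, which gives them more room for a match. These are counts of letters, not of bound sites, and no test was made. The members were grouped as genes linked to NF-kB, some of them known targets, so nothing is read from their share of NF-kB matches.

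Levels between genes were compared per kilobase of exon, from the union of exons in GENCODE release 29. In untreated cells NFKB2 had the highest level, 695 normalized counts per kb, followed by NFKBIA with 549 and TNFAIP2 with 496. The lowest untreated NFKB2 value, 638 per kb, was above the highest of NFKBIA, 606 per kb, whereas NFKBIA and TNFAIP2 overlapped. The other 7 genes were at 8.04 per kb or less, in the order IL7, TNFRSF9, CCL7, VCAM1, IL1A, TNFSF15 and CSF3, and each overlapped its neighbour. CSF3 closed the order at 0.975 per kb. In GDF15 replicate 1 CSF3 reached 63.8 per kb, near CCL7 at 64.7 and TNFRSF9 at 61.8, and TNFSF15 was the lowest of the 10 there, at 12.1 per kb. IL7, first of the 7 in untreated cells, was at 40.6 per kb there.

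**Figure D2:**
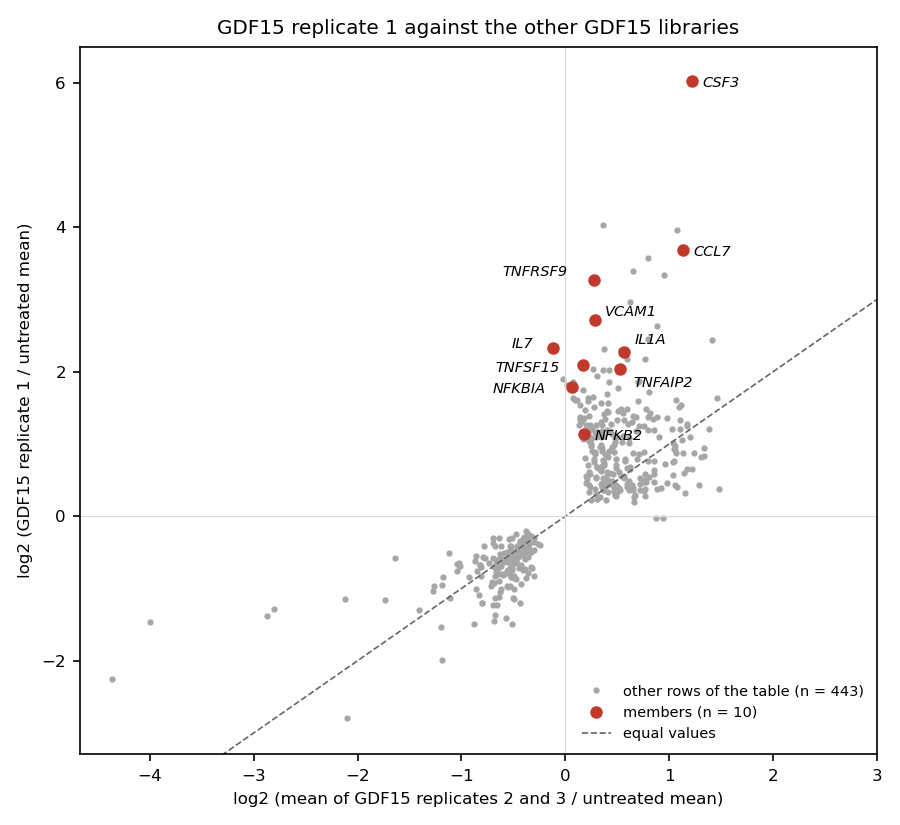
Each point is a row of the table, with the log2 ratio of the mean of GDF15 replicates 2 and 3 to the untreated mean on the horizontal axis and the log2 ratio of GDF15 replicate 1 to the untreated mean on the vertical axis. The 10 genes, in red, all lie above the dashed line of equal values, from NFKB2 at 0.18 and 1.14 to CSF3 at 1.22 and 6.03.

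Taken as a list, the 10 genes were all higher by the ratio of means, where 60.5% of the rows of the table are listed as higher with GDF15. Their median log2 ratio of means was 1.30, beside 0.70 for the 274 rows listed as higher and 0.47 for all 453 rows. Without GDF15 replicate 1 the same medians were 0.28 for the 10 genes, 0.48 for the higher rows and 0.26 for all rows, and 9 of the 10 genes remained above the untreated mean, by log2 ratios up to 1.22. Groups did not overlap for 2 of the 10, CCL7 and TNFAIP2. Of all 453 rows 37.3% were higher without overlap, which is 169 of the 274 listed as higher. The members' count was 6 without GDF15 replicate 3 (45.9% of rows), 6 without untreated replicate 1 (55.2%) and 4 without untreated replicate 2 (38.0%). It was 3 without GDF15 replicate 2 (43.7%), 3 without untreated replicate 3 (38.6%) and 2 without GDF15 replicate 1 (38.6%). These shares are of all 453 rows, those listed as lower included. Groups with fewer libraries overlap less. In GDF15 replicates 2 and 3, both libraries were above all untreated ones for these 2 genes, 1 of the 2 libraries was for CSF3, IL1A, TNFRSF9, VCAM1 and NFKB2, and neither was for IL7, TNFSF15 and NFKBIA.

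No member passed an adjusted p of 0.05. The adjusted p was 0.911 for every row of the authors' deposited table, so 0 of 453 rows (0%) passed, against 453 with an unadjusted p under 0.05. Limma on log2(normalized count + 1) within the table also called 0 rows at an adjusted p under 0.05 (0%), with 104 higher rows (23.0%) and 55 lower rows at an unadjusted p under 0.05. Of the 10 members it had CCL7 and TNFAIP2 among those 104. Limma called CCL7 but not TNFAIP2 without GDF15 replicate 1, where it called 17.2% of rows as higher. It called no member without untreated replicate 1, 2 or 3, with 27.8%, 12.1% and 12.6% of rows called higher. Without GDF15 replicate 2 it called CCL7, IL1A and TNFAIP2 (16.6% of rows), and without GDF15 replicate 3 CCL7, CSF3, TNFAIP2, TNFRSF9 and VCAM1 (15.9% of rows). All rows were selected on this contrast, so nothing is read from these counts.

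Other genes of the pathway were taken from 7 lists holding 135 genes, of which 20 were rows of the table, the 10 members and 10 more. All 20 were listed as higher and none as lower, where 60.5% of all rows are listed as higher. The 10 members among them were picked with their values known, so the count is no test of direction. For the 10 that are not members the median log2 ratio of means was 0.67, and 0.26 without GDF15 replicate 1. Groups did not overlap for 4 of them, IKBKE, TNFSF18, TNFRSF1A and CD40, beside 169 of the 274 rows listed as higher (37.3% of all rows). GDF15 replicate 1 was highest for 9 of them, the exception being TNFRSF25. That held for 39.7% of all rows, and for 180 of the 274 rows listed as higher.

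Among 26 NF-kB subunit and regulator genes, BCL3, TNIP1 and IKBKE were listed beside the 2 members. BCL3 encodes a nuclear IkB protein that works with the p50 and p52 subunits. It had 1223, 508 and 497 normalized counts in the treated libraries and 501, 307 and 329 in the untreated ones, so untreated replicate 1 was level with the lower GDF15 libraries. TNIP1, whose product restrains NF-kB together with A20, was 1.83-fold higher by the means, 6282 ± 3338 against 3425 ± 800 (SD, n = 3), with overlap. IKBKE encodes a kinase of the IKK family and was 1.54-fold higher, 714 ± 301 against 465 ± 54.8 (SD, n = 3), without overlap. Without GDF15 replicate 1 the ratios were 1.32-fold for BCL3, 1.27-fold for TNIP1 and 1.16-fold for IKBKE.

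Among 24 TNF family ligand and receptor genes, 5 were listed beside TNFSF15 and TNFRSF9. TNFSF18, the gene of the ligand GITRL, had 120.0, 66.3 and 64.3 normalized counts in the treated libraries and 38.4, 35.1 and 60.2 in the untreated ones. Its ratio of 1.88-fold was 1.47-fold without GDF15 replicate 1. TNFRSF1A, the main TNF receptor gene, was 1.26-fold higher, 3494 ± 524 against 2778 ± 172 (SD, n = 3). CD40, whose product is the receptor of CD40 ligand, was 1.32-fold higher, with 911, 657 and 646 normalized counts in the treated libraries and between 549 and 579.6 in the untreated ones. TNFRSF10B, the gene of the TRAIL receptor DR5, was 1.56-fold higher with overlap.

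Receptors for the members' own products were a list of 16, of which IL7R and TNFRSF25 were rows of the table. IL7R encodes the alpha chain of the IL7 receptor. It had 9412, 4589 and 5161 normalized counts in the treated libraries and 5263, 2921 and 4186 in the untreated ones, with overlap and a ratio of 1.55-fold that was 1.18-fold without GDF15 replicate 1. Per kb of exon its untreated mean was 680.4 normalized counts, against 8.04 for IL7. TNFRSF25 encodes DR3, the receptor of TNFSF15, and did not follow the members across libraries. It had 95.2, 79.8 and 136 normalized counts in the treated libraries and 84.0, 53.1 and 53.8 in the untreated ones, highest in GDF15 replicate 3. Its ratio was 1.63-fold, and 1.70-fold without GDF15 replicate 1.

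Of 22 chemokine genes only CCL7 was a row of the table, of 11 leukocyte adhesion genes only VCAM1, and of 19 cytokine genes CSF3, IL1A and IL7. Of 18 other NF-kB target genes TNFAIP2 and PTX3 were. PTX3 encodes pentraxin 3, a secreted pattern recognition protein, and had 6592, 2839 and 2119 normalized counts in the treated libraries and 2915, 1949 and 1511 in the untreated ones. Its groups overlapped, and the 1.81-fold ratio was 1.17-fold without GDF15 replicate 1.

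**Figure D3:**
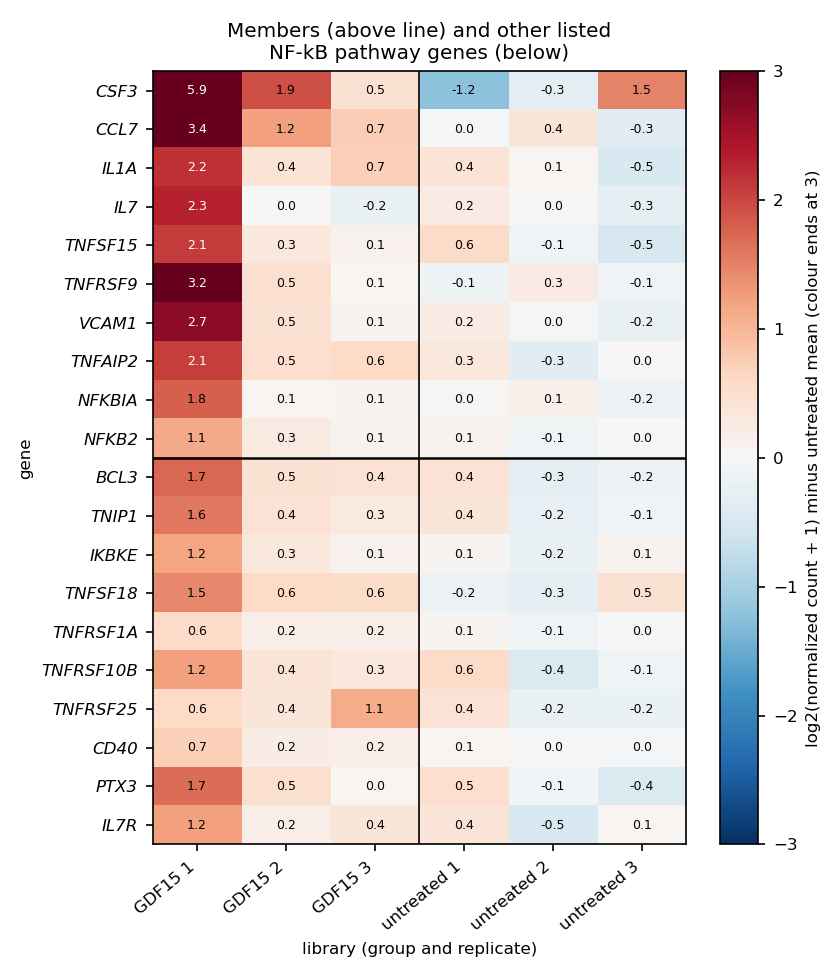
Each cell gives log2(normalized count + 1) of a gene (rows) in a library (columns) minus the gene's untreated mean on that scale, with colours that end at 3. The first column, GDF15 replicate 1, holds the highest value of 19 of the 20 genes, and TNFRSF25 is highest in GDF15 replicate 3.

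The shape shared by the members was compared with 418 named rows of at least 20 normalized counts on average, members that reach this mean included. Each gene's log2(normalized count + 1) was centred on its own mean over the 6 libraries, and the root mean square difference from the members' median profile was taken. That profile was 1.82 in GDF15 replicate 1, -0.09 and -0.28 in GDF15 replicates 2 and 3, and -0.26, -0.51 and -0.68 in untreated replicates 1, 2 and 3. Of the members, VCAM1 was nearest to it, with a difference of 0.16, and CSF3 farthest, with 1.62. The 5 other rows nearest to it were ZC3H12A at 0.17, IRAK2 at 0.20, CEBPD at 0.21, EPSTI1 at 0.23 and IRF7 at 0.24. With 6 libraries and 1 that stands apart, this likeness is mostly the height of GDF15 replicate 1.

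ZC3H12A encodes Regnase-1, a ribonuclease that degrades inflammatory mRNAs, and had 1131, 324 and 264 normalized counts in the treated libraries and 264, 179 and 238 in the untreated ones. IRAK2, a kinase gene of IL-1 and Toll-like receptor signalling, had 775 in GDF15 replicate 1 and between 175 and 253 normalized counts in the other 5 libraries. CEBPD, the gene of a transcription factor of the acute phase response, was the only 1 of these 5 whose groups did not overlap, with 1377, 397 and 415 normalized counts in the treated libraries against 263, 290.0 and 286 in the untreated ones. The interferon-induced genes EPSTI1 and IRF7 were 1.91-fold and 1.84-fold higher by the means, and 1.05-fold and 1.01-fold without GDF15 replicate 1.

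**Figure D4:**
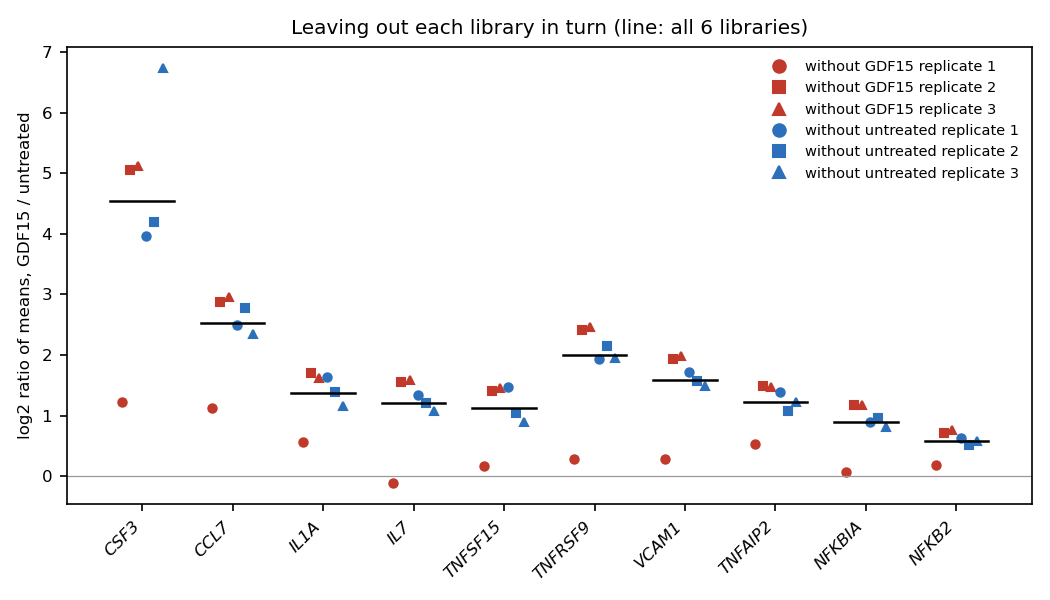
The vertical axis is the log2 ratio of the GDF15 mean to the untreated mean for each of the 10 genes, with all 6 libraries (line) and with each library left out in turn (markers, red for GDF15 and blue for untreated libraries). The lowest marker of each gene is the value without GDF15 replicate 1, from -0.12 for IL7 to 1.22 for CSF3.

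The median of the 10 log2 ratios stayed between 1.19 and 1.63 when any library other than GDF15 replicate 1 was left out. CSF3 ran from 1.22 without GDF15 replicate 1 to 6.74 without untreated replicate 3, the untreated library with most of its steps. CCL7 ran from 1.13 to 2.95, TNFAIP2 from 0.53 to 1.49 and NFKB2 from 0.18 to 0.76. The share of the GDF15 sum held by replicate 1 fell from 93.4% for CSF3 and 79.9% for TNFRSF9 to 58.8% for TNFAIP2 and 49.3% for NFKB2.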

How the data were processed

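Poly(A) RNA of 6 LX2 libraries was sequenced. Processing tools, per the submitters' processing notes, were DESeq2, STAR 2.5.2b, Trimmomatic 0.36, featureCounts and Subread 1.5.2, with build GRCh38. The sources used here do not state settings, annotation or strand use in counting, so reads of overlapping genes cannot be told apart. The deposited table gives the authors' log2 fold change, their p-value columns, and a signal column per library of normalized counts. No such column was left unmapped.

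Means, SDs and ratios were computed over 3 libraries per group with Python 3.11.15, and log2(normalized count + 1) of all rows was fitted with limma 3.58.1 (R 4.3.3) after a test on simulated data. An edgeR test and TMM factors had been planned and were not run: the values are deposited as normalized, and a separate check of the low values did not recover whole reads, so steps are given only as the smallest increment seen in a library. The members and gene lists were chosen with earlier results of these data known. The text names all members, every list gene in the table and the 5 rows most alike in profile, and other names were chosen after their values were seen. Alternatives were other pseudocounts, a minimum mean, a replicate block, other scaling factors and leaving out libraries. Positions and exon lengths are from GENCODE release 29, and promoter sequences are from RefSeq (GRCh38.p14).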

Additional observations from a re-analysis of the deposited data

How the results depend on the processing

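Leaving out 1 library at a time gave a median log2 ratio of the 10 genes of 0.28 to 1.63 (1.30 with all), with 2 to 6 genes without overlap (2 with all), and 55 to 126 higher and 24 to 66 lower rows called by limma at an unadjusted p under 0.05 (104 and 55 with all). The lowest median is that without GDF15 replicate 1, and IL7 then turned to a log2 ratio of -0.12, within a range of -0.12 to 1.59 over the left-out libraries. Leaving out GDF15 replicate 1 and untreated replicate 2 together, chosen after seeing the data, gave IL7 -0.11, a median of 0.32 and 4 genes without overlap. Smaller groups overlap less in any row, and the share over all rows was not computed for this setting. Nothing is read from that count. Of the members with a mean of at least 20 normalized counts, 1 was without overlap, because CCL7 has fewer. With the replicate block limma called 161 of the 453 rows as higher and 68 as lower, against 104 and 55 without the block. CCL7, IL1A, TNFAIP2, TNFSF15 and VCAM1 were among the rows called with it. Calls rose over the whole table, so nothing is read from those of the members. The deviations of same-numbered libraries correlated over rows at 0.11, 0.22 and -0.05 for numbers 1, 2 and 3. GDF15 replicates 1 and 2 correlated best with their own number, and GDF15 replicate 3 did not. Such weak correlations, over rows selected on this contrast, cannot decide whether the numbers are pairs, and the main fit did not use pairs. Factors computed over the table's rows, also chosen after seeing the data, moved the median of all rows by -0.20 on the log2 scale and that of the 10 genes to 1.05, and changed no direction among them. Pseudocounts of 1 and 5 gave medians of 1.26 and 1.15. Of 100 values of single genes under alternatives, 2 turned, both for IL7 with GDF15 replicate 1 left out. The spread of the GDF15 libraries is itself set by replicate 1, so it is no measure of stability: without that library TNFRSF9 went from 2.01 to 0.28 and VCAM1 from 1.58 to 0.29 on the log2 scale. The edgeR and TMM alternatives were not run. Depth limits CSF3, CCL7 and IL1A most, with 0 to 14 steps per library outside GDF15 replicate 1.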

Other observations

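The height of GDF15 replicate 1 was not limited to NF-kB genes. In 19 rows of the table (4.19%) its value was at least 3 times that of every other library. Of these, 6 were members. ZC3H12A, IRAK2, CEBPD, EPSTI1 and IRF7, described above, were also among the 19 rows, at higher counts than the following 2. These 2 were chosen after their values were seen. GNA15, the gene of a G protein alpha subunit, had 49.7 normalized counts in GDF15 replicate 1 and between 2.84 and 4.43 in the other 5 libraries. Those 5 values were only 3 or 4 steps each. EDNRB, the gene of the endothelin B receptor, had 62.1, 8.99 and 7.76 normalized counts in GDF15 replicates 1, 2 and 3. It had 4.15, 3.79 and 3.96 in untreated replicates 1, 2 and 3, without overlap. Its ratio was 2.11-fold when GDF15 replicate 1 was left out. That ratio rests on few steps, 8 and 7 with GDF15 against 4, 4 and 5 without.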
